A study of Mus musculus with 8 samples.

Results

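Gbp5, Gbp2b, Irgm2, Zbp1, Bst2, Ifi35, Ifi44, Ifi27, Xaf1 and Herc6 are 10 interferon-inducible genes that were measured in peritoneal tumors of mice with or without a STING agonist. They are 10 of the 750 immune genes of a NanoString panel, matched by symbol, and all 10 were found on it. The genes were selected on their values in these same tumors, which were higher after the STING agonist in earlier results of these data. Their difference between the groups is therefore a description with no test, and it supports nothing else.

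The tumors grew in wild-type male C57BL/6 mice, 7–8 weeks old in the paper's methods, after 500000 cells of the mouse colon cancer line MC38 had been placed in the peritoneum. In the treated group, RR-CDA (also called MIW815 or ADU-S100), a cyclic dinucleotide that activates STING, was injected intraperitoneally from day 7 in 2 doses of 15 µg given 3 days apart. The control group received an equal volume of PBS by the same route. The tumors were collected 10 days after the first injection, and total RNA of the whole tumor was measured in 4 PBS-treated control and 4 STING agonist-treated tumors. The tissue is labelled colon. The counts of the epithelial markers Epcam, Cdh1 and Muc1 were low, with summed normalized counts of 29.3 to 62.7 per sample, and 2 of these 3 genes had a mean under 20 counts. By a figure legend of the paper, the tumors come from 2 pooled experiments. Which tumor belongs to which is not given in the sources used here, and no comparison within an experiment was made.

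In this assay, color-coded probes are bound to each transcript and counted without amplification. Total counts over the 750 genes were 241724 to 403150 in the control tumors and 241506 to 414698 in the treated tumors. A normalized count is the count divided by the scale of its sample, taken from the geometric mean over 20 housekeeping genes. Background, set at 2 SD above the mean of the 8 negative controls, averaged 8.36 counts. PBS tumors 2 and 4 differed by less than sampling noise over 320 genes of moderate count, with 0.499 as the chi-square for each degree of freedom, while the other 11 pairs within a group gave 5.42 to 14.9. Over 43 genes of at least 1000 counts this pair did differ, at 8.32 against 54.5 to 376 in the other pairs. PBS 2 and 4 were averaged and counted as 1 sample, named PBS 2/4, which leaves n = 3 control and n = 4 treated samples. STING agonist tumor 4 also stood apart. The summed normalized counts of 11 hepatocyte markers were 1526 in this tumor and 65.3 to 121 in the other 6 samples, and the most abundant of them, Ambp, was at 762 against 2.44 to 11.7. The differences of the 10 genes are therefore also given without this tumor.

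Interferons are secreted when a cell senses foreign or misplaced nucleic acid, and STING is the adaptor through which cytosolic DNA leads to the production of type I interferon. Interferon receptors signal through JAK kinases and STAT proteins, which switch on a large set of genes by binding to interferon-stimulated response elements (ISRE) and gamma-activated sites (GAS) in their promoters. The products of these genes include GTPases that attack the vacuoles of intracellular microbes, sensors of nucleic acid and proteins that hold back virus particles.

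Of the 10 genes, the GTPase genes Gbp2b, whose controls lay near background so that its fold is uncertain, and Gbp5 had the largest fold changes, and the GTPase gene Irgm2 came after Zbp1. Gbp5 encodes a guanylate-binding protein that promotes inflammasome activity. Its normalized counts were 259, 279 and 126 in PBS 1, PBS 3 and PBS 2/4, and 646, 614, 333 and 686 in STING agonist tumors 1 to 4. The groups did not overlap, and PBS 2/4 was the lowest sample and treated tumor 3 the lowest of its group. The mean was 2.57-fold higher in the treated tumors (log2 fold change 1.36 ± 0.34, SE) and 2.40-fold higher without treated tumor 4. These are whole tumors, in which more cells of a type and more RNA per cell cannot be told apart.

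Irgm2 belongs to the immunity-related GTPases and regulates other members of that family. Its normalized counts were 266, 243 and 161 in PBS 1, PBS 3 and PBS 2/4, against 518, 457, 291 and 476 in treated tumors 1 to 4. Here too every treated tumor lay above every control, with treated tumor 3 close to the highest control. The mean was 1.95-fold higher (log2 fold change 0.96 ± 0.25, SE), and 1.89-fold without treated tumor 4. With the TMM scale and the size factors of DESeq2 the log2 fold change of Irgm2 was 0.72 ± 0.23 and 0.70 ± 0.23 (SE). The groups overlapped in both.

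Gbp2b, another guanylate-binding protein, was measured near background. It had normalized counts of 12.0, 11.5 and 5.83 in PBS 1, PBS 3 and PBS 2/4 and of 54.9, 7.33, 17.4 and 68.8 in treated tumors 1 to 4. Treated tumors 1 and 4 were high, treated tumor 3 lay slightly above the controls and treated tumor 2 within their range, so the groups overlapped. The raw count was 6 in treated tumor 2 and 3 to 16 in the 4 control tumors, where counting error is large. The fold of 3.79 (log2 fold change 1.90 ± 0.73, SE) was 2.71 without treated tumor 4. The guanylate-binding proteins are a family of closely related genes, and whether the probes also bind relatives was not tested.

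The promoters of the 3 GTPase genes are shown because they encode proteins of related function with high values in the same treated tumors, Gbp2b in tumor 2 excepted. Sequences are from RefSeq (GRCm38.p6), 300 bases each, from 250 before to 50 after the start of the gene, and 8 of the 10 genes had an entry (Zbp1 and Ifi27 did not). The ISRE core was searched as GAAA, any 2 bases, GAAA, and GAS as TTC, any 3 bases, GAA, on both strands, with matches in capitals. The Gbp5 window lies at chr3:142496684-142496983 and the Gbp2b window at chr3:142594597-142594896, both on the plus strand and 97913 bases from start to start. The Irgm2 window lies at chr11:58214727-58215026 on the plus strand. Gbp5 held 1 ISRE core and 2 GAS matches, Gbp2b 1 ISRE core and no GAS, and Irgm2 1 of each.
Gbp5: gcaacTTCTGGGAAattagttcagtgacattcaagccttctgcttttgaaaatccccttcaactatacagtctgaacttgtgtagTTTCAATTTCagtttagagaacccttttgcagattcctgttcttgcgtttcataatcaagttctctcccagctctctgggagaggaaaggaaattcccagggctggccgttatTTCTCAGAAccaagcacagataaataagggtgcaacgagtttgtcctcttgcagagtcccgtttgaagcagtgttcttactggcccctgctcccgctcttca
Gbp2b: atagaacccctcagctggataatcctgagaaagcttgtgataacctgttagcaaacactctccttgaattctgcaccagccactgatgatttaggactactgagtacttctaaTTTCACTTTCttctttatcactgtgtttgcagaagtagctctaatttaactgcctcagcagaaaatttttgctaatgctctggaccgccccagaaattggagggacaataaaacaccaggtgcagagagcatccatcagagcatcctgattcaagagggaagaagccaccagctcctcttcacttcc
Irgm2: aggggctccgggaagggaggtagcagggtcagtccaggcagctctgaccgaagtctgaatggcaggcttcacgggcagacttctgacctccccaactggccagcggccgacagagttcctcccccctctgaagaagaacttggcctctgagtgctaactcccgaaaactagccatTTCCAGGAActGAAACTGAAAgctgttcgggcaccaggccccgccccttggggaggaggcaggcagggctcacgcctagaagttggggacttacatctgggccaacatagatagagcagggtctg

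**Figure D1:**
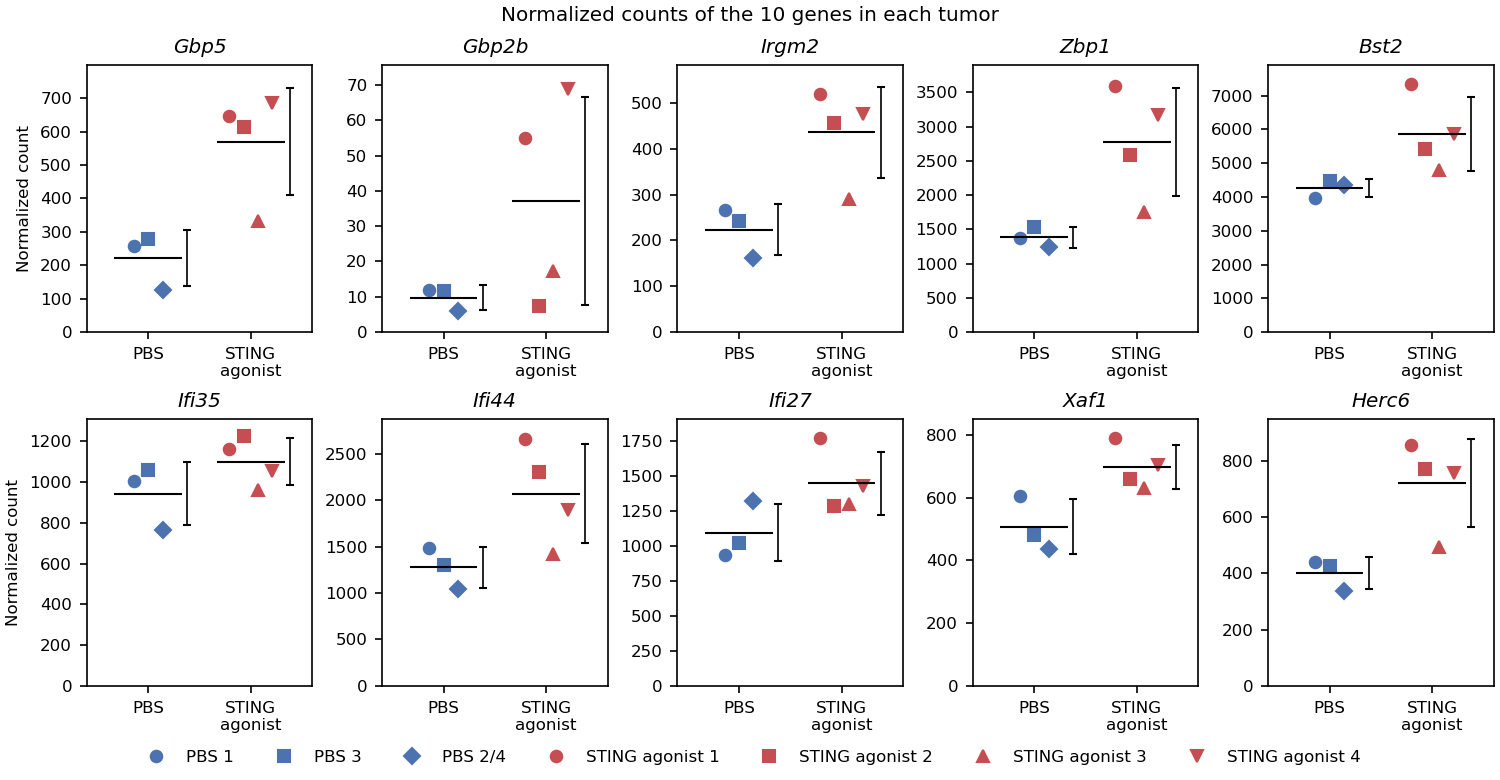
Normalized counts of the 10 genes in each sample, by group. Points are samples, horizontal lines group means and bars 1 SD (n = 3 PBS, n = 4 STING agonist); all treated points lie above all control points for 6 genes, and the axes of single genes differ.

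Zbp1, a sensor of Z-form nucleic acid that can start necroptosis, had normalized counts of 1381, 1540.1 and 1238 in PBS 1, PBS 3 and PBS 2/4. In treated tumors 1 to 4 they were 3593, 2580.2, 1760.5 and 3172. The groups did not overlap, and the 3 controls lay close together while treated tumors 1 and 3 were 2.04-fold apart. The mean was 1386 ± 151 (SD, n = 3) in controls and 2777 ± 795 (SD, n = 4) in treated tumors, a fold of 2.0 (log2 fold change 1.0 ± 0.24, SE). Without treated tumor 4 the fold was 1.91.

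Bst2 encodes tetherin, a membrane protein that holds budding virus particles at the cell surface. Its normalized counts were 3968, 4468 and 4358 in PBS 1, PBS 3 and PBS 2/4 and 7352, 5433, 4799 and 5862 in treated tumors 1 to 4. The groups did not overlap, but the gap between the highest control and treated tumor 3 was small. The fold was 1.37 (log2 fold change 0.46 ± 0.17, SE), with and without treated tumor 4. The log2 fold change fell to 0.19 ± 0.19 (SE) with the TMM scale and 0.18 ± 0.18 (SE) with the size factors of DESeq2, and the groups then overlapped. The promoter of Bst2, at chr8:71537423-71537722 on the minus strand, is shown because it held 2 ISRE cores that overlap each other and 1 GAS match that overlaps the first of them.
Bst2: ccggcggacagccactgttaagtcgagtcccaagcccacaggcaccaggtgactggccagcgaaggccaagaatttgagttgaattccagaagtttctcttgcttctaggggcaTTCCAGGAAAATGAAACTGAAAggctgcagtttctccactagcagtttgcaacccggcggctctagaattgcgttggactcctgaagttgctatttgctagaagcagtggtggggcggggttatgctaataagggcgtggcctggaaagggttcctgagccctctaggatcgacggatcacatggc

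The sequence matches were not limited to genes of this group. An ISRE core was found in 1131 of all 32851 promoters of the table (3.44%) and a GAS match in 2726 (8.30%), and both in 149 (0.454%). Of the 8 promoters of the described genes, 4 held an ISRE core, 4 a GAS match and 3 both. Ifi35 held a GAS match only, and Ifi44, Xaf1 and Herc6 neither. A match describes the letters and does not show that a factor binds there, and no match says only that these letters are absent from the window.

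Among the genes named for their induction by interferon, the differences were smaller or overlapped. Ifi44, an interferon-inducible antiviral protein, had normalized counts of 1484, 1300.2 and 1048 in PBS 1, PBS 3 and PBS 2/4 and of 2654, 2303, 1417 and 1891 in treated tumors 1 to 4. Treated tumor 3 lay below PBS 1, so the groups overlapped, while the other 3 treated tumors were above every control. The fold was 1.62 (log2 fold change 0.69 ± 0.23, SE).

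Ifi27 encodes a small hydrophobic interferon-inducible protein. The normalized counts of PBS 1, PBS 3 and PBS 2/4 were 939, 1024 and 1325, and those of treated tumors 1 to 4 were 1775, 1289, 1299.7 and 1432. PBS 2/4, the lowest control for 8 of the 10 genes, was the highest one here and lay above treated tumors 2 and 3. The fold was 1.32 (log2 fold change 0.40 ± 0.18, SE), and the log2 fold change was 0.11 ± 0.22 (SE) with the TMM scale and 0.11 ± 0.21 (SE) with the size factors of DESeq2.

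Ifi35 encodes a leucine zipper protein that pairs with Nmi. It had 1005, 1057 and 766 normalized counts in PBS 1, PBS 3 and PBS 2/4 and 1159.6, 1223, 960.4 and 1055 in treated tumors 1 to 4. Treated tumors 3 and 4 lay within the range of the controls. The log2 fold change of 0.22 ± 0.16 (SE) was the smallest of the 10 and close to the median of all genes of the panel, 0.22. It turned to -0.01 with the TMM scale of edgeR and -0.02 with the size factors of DESeq2.

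Xaf1, which binds the apoptosis inhibitor XIAP, had normalized counts of 607, 480.5 and 437 in PBS 1, PBS 3 and PBS 2/4. Treated tumors 1 to 4 had 792, 660.0, 630.4 and 706, all above the controls. The fold was 1.37 (log2 fold change 0.46 ± 0.16, SE), a difference of similar size to that of Bst2 but with a smaller spread among treated tumors. With the TMM scale and the size factors of DESeq2 the log2 fold change of Xaf1 was 0.19 ± 0.18 and 0.18 ± 0.18 (SE), and the groups overlapped in both.

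Herc6, a ligase that attaches the ubiquitin-like protein ISG15 to other proteins in the mouse, had normalized counts of 438, 427 and 336 in PBS 1, PBS 3 and PBS 2/4. The values of treated tumors 1 to 4 were 856, 770.0, 495 and 756. The groups did not overlap, and treated tumor 3 was again the lowest of its group. The fold was 1.80 (log2 fold change 0.84 ± 0.21, SE), and 1.76 without treated tumor 4. The log2 fold change was 0.59 ± 0.21 (SE) with the TMM scale and 0.58 ± 0.20 (SE) with the size factors of DESeq2. With either scale the groups overlapped.

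Taken by tumor, the 10 genes had a common order with exceptions. Treated tumor 1 was the highest treated tumor for 7 genes, treated tumor 4 for Gbp5 and Gbp2b, and treated tumor 2 for Ifi35. Treated tumor 3 was the lowest of its group for 8 genes, the exceptions being Gbp2b and Ifi27, for which it was treated tumor 2. With the TMM scale, treated tumor 1 was highest for 3 genes and treated tumor 3 lowest for 7. The whole panel also varied by tumor. With the housekeeping scale, the median log2 normalized count of all genes was 5.79, 5.99 and 5.43 in PBS 1, PBS 3 and PBS 2/4. In treated tumors 1 to 4 it was 6.37, 6.04, 6.10 and 6.51. The share of all genes with the same order was not counted, so nothing particular to the 10 genes is read from it. The SD of the log2 normalized count within the treated group ran from 0.14 for Xaf1 to 1.43 for Gbp2b, and within the controls from 0.09 for Bst2 to 0.63 for Gbp5.

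Without treated tumor 4, the folds of Ifi44, Ifi27, Ifi35 and Xaf1 were 1.66, 1.33, 1.18 and 1.37.

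Each of the 10 genes had a mean count over 20. Of these, 6 had every treated tumor above every control, where 126 of the 750 genes (16.8%) did so and 11 (1.47%) had every treated tumor below. The 126 became 239 without PBS 3 and 72 with positive controls as scale. Because the genes were chosen by this contrast, nothing is read from the 6. The count was also 6 of the 10 without treated tumor 4, against 137 of all 750 genes. With PBS 2 and 4 left out it was 7 of the 10, when Ifi27 joined them, against 143 of all 750 genes. With the TMM scale the count was 2 of the 10, Gbp5 and Zbp1, and with the size factors of DESeq2 the same 2. Of all 750 genes, 70 and 67 had every treated tumor above every control with these 2 scales. The median log2 fold change was 0.77 over the 10 genes and 0.22 over all 750. These medians were 0.52 and -0.02 with the TMM scale. After subtraction of the panel median, with the housekeeping scale, the genes with the smallest differences were Ifi35 at 0.00, Ifi27 at 0.19, Bst2 at 0.24 and Xaf1 at 0.24.

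**Figure D2:**
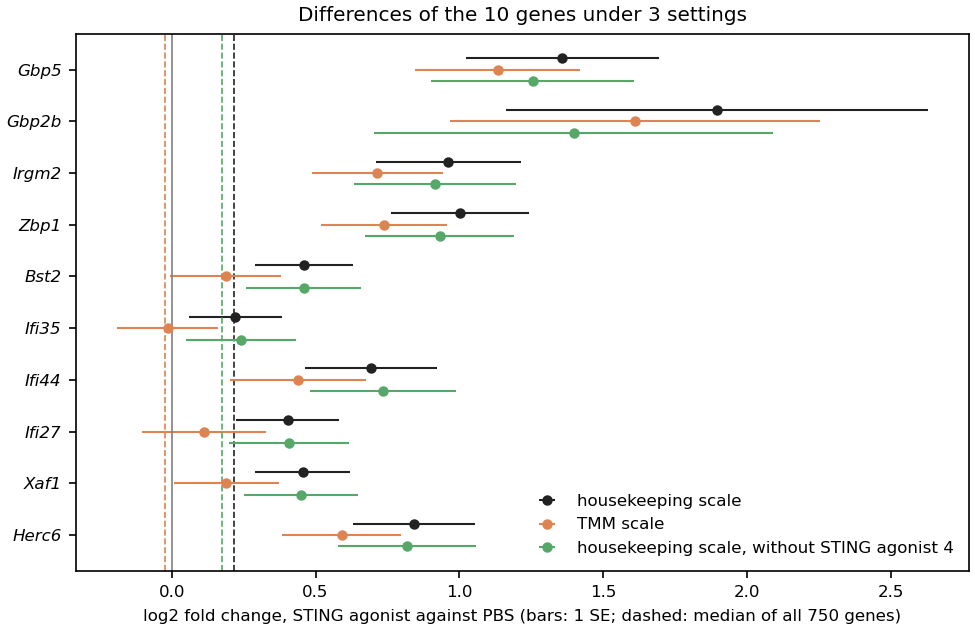
Log2 fold change of each gene with its SE, with the housekeeping scale, the TMM scale and the housekeeping scale without STING agonist tumor 4. Dashed lines are the medians of all 750 genes (0.22, -0.02 and 0.17); Ifi35 lies at -0.01 with the TMM scale, and the other 9 genes lie above 0 in all 3 settings.

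Over the whole panel, the quasi-likelihood test of edgeR found no gene at an adjusted p under 0.05, neither on the higher (0%) nor on the lower side (0%). At an unadjusted p under 0.05 there were 132 genes with higher (17.6%) and 10 with lower values (1.33%). DESeq2, by its Wald test on the housekeeping scale, found 44 genes at an adjusted p under 0.05, 43 higher and 1 lower, among 739 genes given an adjusted p. Leaving out treated tumor 3 gave 7 adjusted calls of edgeR, and leaving out PBS 3 gave 1. The 132 became 79 without treated tumor 1 and 79 without treated tumor 4, and the 10 became 6 without treated tumor 1 or PBS 3 and 18 without treated tumor 3. With the TMM scale the unadjusted counts were 84 higher and 40 lower. The labels do not say that tumors of a group came from separate mice, so the p-values measure only the spread between these samples.

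Other panel genes were taken by the start of their symbol, which need not make them relatives of the described genes. Of these, 2 of 9 were higher at an unadjusted p under 0.05, against 17.6% of all 750 genes, so nothing is read from this count. Ifit2 and Ifit3, which bind viral RNA, were 1.57-fold and 1.48-fold higher (adjusted p = 0.22 and 0.19, edgeR). Ifit2 had normalized counts of 270.1, 335 and 218 in PBS 1, PBS 3 and PBS 2/4 and 564, 425, 307 and 430.5 in treated tumors 1 to 4. Ifit1 was at 533 ± 64.4 (SD, n = 3) in controls and 663 ± 89.0 (SD, n = 4) in treated tumors, and Ifih1, a sensor of double-stranded RNA, at 569.6 ± 86.4 and 686 ± 86.5. Mx2 was at 79.3 ± 28.4 and 93.5 ± 33.4. The membrane proteins Ifitm1 and Ifitm2, which block virus entry, had lower means in treated tumors, with log2 fold changes of -0.22 ± 0.38 and -0.27 ± 0.18 (SE). With PBS 2 and 4 left out, Ifitm1 turned to 0.24 and Mx2 to -0.04. Ifi44l and Mx1 had mean counts of 8.57 and 3, at or below background.

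Genes of the interferon response were grouped in lists. The lists were chosen with earlier results of these data known, so their counts are a description and no independent support. Of 16 measured interferon-gamma-induced genes, 13 had a higher mean with an unadjusted p under 0.05 (17.6% of all genes) and 0 a lower one, with a median log2 fold change of 1.15 against 0.22 over all genes, and the count was 10 to 14 over all alternatives. Cxcl9, a chemokine that attracts T cells, had normalized counts of 204, 259 and 79.3 in PBS 1, PBS 3 and PBS 2/4. In treated tumors 1 to 4 it had 871, 875, 468 and 1239, a fold of 4.77 (adjusted p = 0.18, edgeR), with 4 of 4 treated tumors above every control. Cd74, H2-Aa and H2-Ab1, which act in antigen presentation by MHC class II, were 5.62-fold, 6.35-fold and 5.76-fold higher (each with an adjusted p of 0.18, edgeR), again with 4 of 4 above every control.

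Among 12 measured JAK-STAT and IRF factors, an unadjusted p under 0.05 was found for 6 with higher and 0 with lower values (median log2 fold change 0.49). Irf1, a transcription factor of the interferon response, was 2.01-fold higher (adjusted p = 0.18, edgeR), with 4 of 4 treated tumors above every control, and Irf8 and Irf7 were 1.63-fold and 1.54-fold higher (adjusted p = 0.23 and 0.23, edgeR). The count of 6 became 2 without treated tumor 1, with the TMM scale or with positive controls as scale. At the same threshold, which 17.6% of all genes passed on the higher side, 4 of 15 antiviral effectors had higher and 0 had lower values (median 0.37). These were Ifit2, Ifit3, Cmpk2 and Isg20, the last named after its values were seen. Cmpk2, a mitochondrial nucleotide kinase, was 1.62-fold higher (adjusted p = 0.18, edgeR), and Usp18, which removes ISG15, was at 224 ± 28.7 (SD, n = 3) against 316 ± 76.2 (SD, n = 4). The count of 4 became 2 without treated tumor 1 and 0 with the TMM scale.

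The next lists hold cell death genes, sensors of nucleic acid and the interferons themselves. Of 14 cell death and inflammasome genes, 3 passed an unadjusted p under 0.05 on the higher side and 0 on the lower (median log2 fold change 0.34), against the 17.6% of all genes on the higher side. Il1b was at 27.3 ± 12.8 (SD, n = 3) in controls and 95.5 ± 63.5 (SD, n = 4) in treated tumors, Tnfsf10, the death ligand TRAIL, was 2.10-fold higher, and Pycard, named after its values were seen, was the last of the 3. Nlrp3 and Fas had means 1.95-fold and 1.55-fold higher and overlapped between groups. Of 9 nucleic acid sensors and adaptors, 8 had a log2 fold change above 0 (median of the list 0.24), as 533 of all 750 genes had (median 0.22), and 1 passed an unadjusted p under 0.05, Tlr9 (2.26-fold higher). The count was 0 of 9 without treated tumor 1, without treated tumor 4 or with PBS 2 and 4 left out, where the log2 fold change of Tlr9 was 1.08, 1.01 and 0.81 against 1.16 in the main fit, and 2 without treated tumor 3 or PBS 3. Tlr3 was at 81.2 ± 22.9 and 114 ± 10.9, and Ddx58 at 723 ± 160 and 960.1 ± 148 (SD, n = 3 and n = 4). Of 9 interferons and receptors, 0 passed at an adjusted or an unadjusted p under 0.05 by edgeR (median -0.02), and 1 did without treated tumor 3 or without PBS 3. The 3 receptor genes Ifngr1, Ifnar1 and Ifnar2 had log2 fold changes of 0.24, 0.11 and -0.04, which turned to -0.02 and -0.15 for Ifngr1 and Ifnar1 with the TMM scale and to 0.02 for Ifnar2 with PBS 2 and 4 left out. The 6 interferon genes had means under 20 counts, where counting error is large. In each of the 6 lists the number of genes at an adjusted p under 0.05 was 0 by edgeR. By DESeq2 it was 10 interferon-gamma-induced genes, 2 JAK-STAT and IRF factors, 2 cell death genes, 1 antiviral effector and 0 in the other lists. All were higher, as 5.82% of 739 genes were. Irf1 is in both the interferon-gamma and the JAK-STAT list, and the calls come from 14 different genes.

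**Figure D3:**
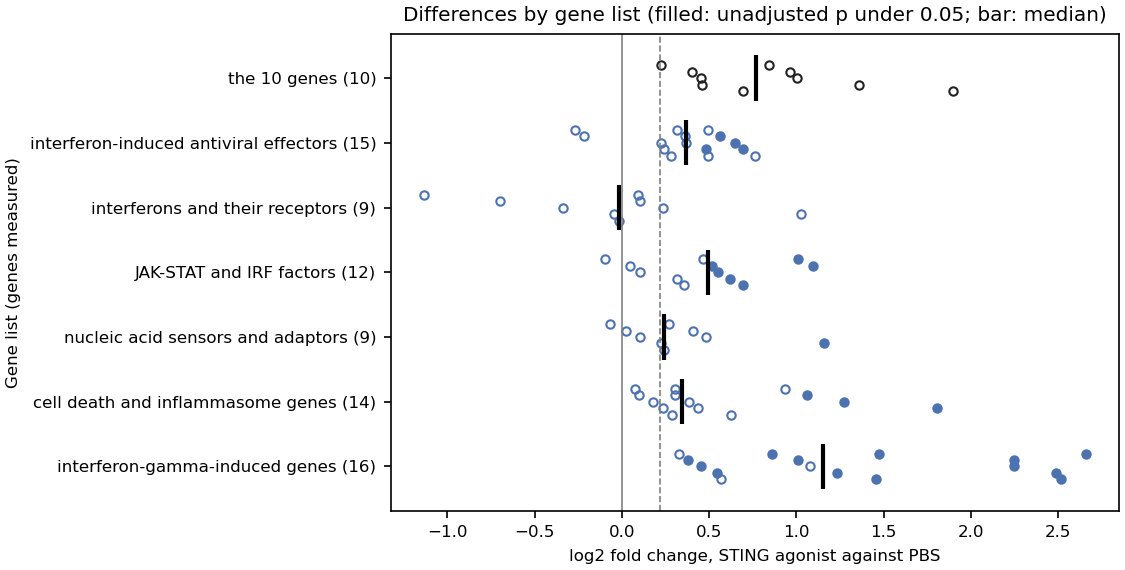
Log2 fold change of each measured gene, by list, with the number of genes measured. Filled points have an unadjusted p under 0.05 (not marked for the 10 genes, which were chosen on this contrast), thick bars are list medians and the dashed line is the median of all genes, 0.22; the list of interferon-gamma-induced genes has its median at 1.15.

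The genes whose profile over the 7 samples was most like that of the 10 genes were Cmpk2, Ifit2, Ifit3, Stat2 and Nod1. Likeness was the root mean square difference of log2(normalized count + 1), centered on the mean of each gene, to the median profile of the 10 genes, and was 0.11, 0.12, 0.14, 0.16 and 0.16 among 509 genes with a mean of at least 20 counts. Stat2, a subunit of the factor that binds ISRE, was 1.43-fold higher in treated tumors and Nod1, a sensor of bacterial peptidoglycan, 1.74-fold. The 10 genes were chosen for higher values in treated tumors, so genes picked for a like profile are higher there by selection. Nothing is read from these folds. The median profile was -0.34, -0.36 and -0.68 in PBS 1, PBS 3 and PBS 2/4 and 0.66, 0.31, -0.11 and 0.34 in treated tumors 1 to 4. With a pseudocount of 20, 4 of the 5 genes were found again, and with all 8 tumors separate all 5.

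**Figure D4:**
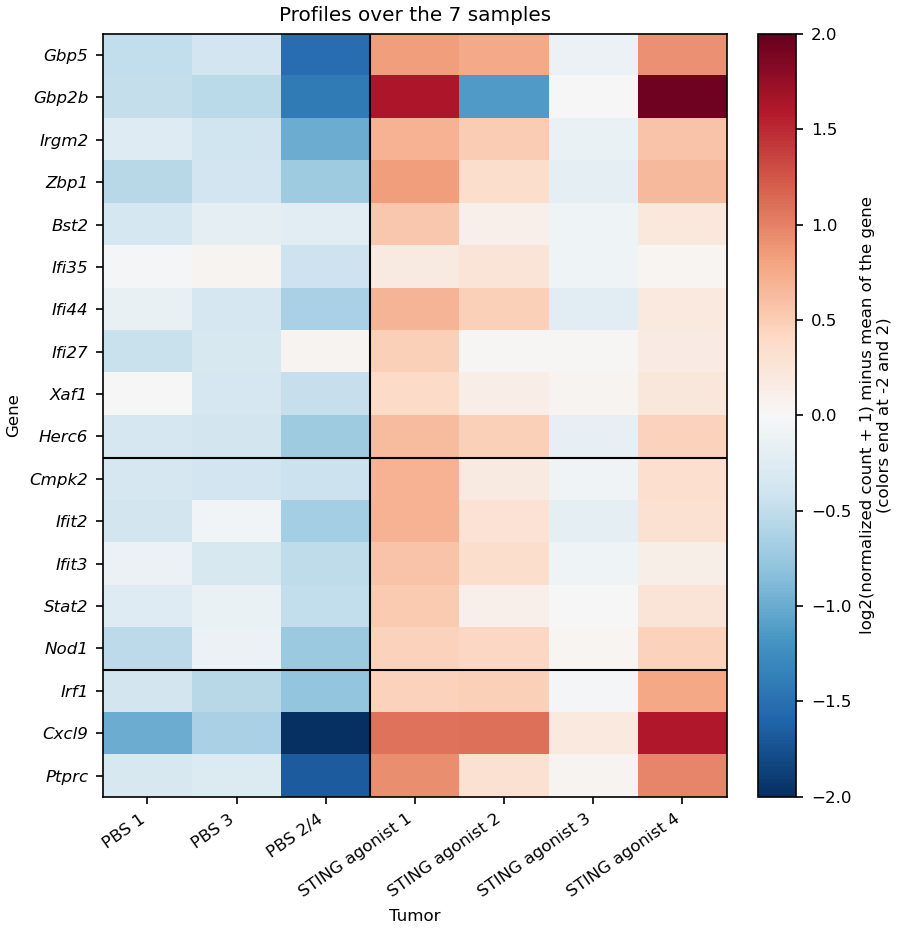
Centered log2(normalized count + 1) of the 10 genes (top), the 5 genes with the nearest profiles (middle) and Irf1, Cxcl9 and Ptprc (bottom) in the 7 samples. Red is above and blue below the mean of the gene; PBS 2/4 is lowest for most rows and Gbp2b is low in STING agonist tumor 2.

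Several leukocyte markers also had higher values in treated tumors. Ptprc, which encodes the pan-leukocyte antigen CD45, had normalized counts of 108, 111 and 42.0 in PBS 1, PBS 3 and PBS 2/4 and 257, 166, 140.0 and 267 in treated tumors 1 to 4, a fold of 2.38 (adjusted p = 0.18, edgeR). Of 6 T cell markers, 3 were higher at an unadjusted p under 0.05, as 17.6% of all genes were, and their summed counts were 160.0, 174 and 104 in the controls and 394, 203, 190.0 and 356 in treated tumors 1 to 4. The most abundant of them was Cd3d, and Cd3e, Cd4 and Cd8b1 had means under 20 counts. Of 5 macrophage or monocyte markers, all with a log2 fold change above 0, 1 was higher at an unadjusted p under 0.05 (Emr1, named after its values were seen) and 2 had every treated tumor above every control, against 17.6% and 16.8% of all genes, so nothing is read from these counts. Their sums were 1145, 1446 and 729 in the controls and 2047, 1287, 1425 and 1925 in treated tumors 1 to 4, with Cd68 the most abundant. PBS 2/4 was the lowest sample in these 3 lists as it was for most of the 10 genes, and treated tumor 1 or 4 the highest. In the median of all genes of the panel, PBS 2/4 was also lowest and treated tumor 4 highest. The part of the cell content in the differences of the 10 genes was not tested.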

How the data were processed

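Total RNA of 8 tumors was measured by the authors on the nCounter PanCancer Immune Profiling mouse panel, and the deposited values are whole-number counts of 784 probes, not scaled or background-subtracted, with a lowest count of 1 in each sample. The paper's own normalization to housekeeping genes is not part of these values. Groups and replicate numbers came from the labels, and doses and days from the labels and the paper. The 10 genes and all gene lists were chosen with earlier results of these data known.

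The geometric mean over 20 housekeeping genes served as library size. All 750 genes were compared in edgeR 4.0.16 under R 4.3.3 by its quasi-likelihood test, without covariate or filter and with Benjamini-Hochberg adjustment. The test was also run on simulated data with equal library sizes, which these tumors do not have, and nothing is read from that run. The rounded mean of PBS 2 and 4 was 1 sample. Genes named were the 10, other panel genes by the start of their symbol (Gbp, Irg, Iigp, Igtp, Tgtp, Ifi, Mx) and the 5 nearest profiles. Added were up to 4 genes per list with the largest absolute log2 fold change among those with a mean of at least 20 counts. The most abundant gene of each of 12 marker lists was also named. Not every gene this rule takes is reported here. Alternatives were TMM, DESeq2 1.42.0 size factors and Wald test, positive controls as scale, housekeeping genes with at least 100 counts, negative controls subtracted, a filter at a mean of 20 counts, all 8 tumors separate with and without a replicate block, and each tumor left out. Leaving out PBS 2 and 4 together was added after seeing the data. Promoters were searched with Python 3.11.15.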

Additional observations from a re-analysis of the deposited data

Results flagged for a closer look

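Among the 4 treated tumors, the gap of the highest or lowest sample to its nearest neighbor, divided by the range of the group, was compared with Dixon's 95% critical value for 64 genes and marker sums. It was exceeded by 4, where chance gives about 5%. Controls, at n = 3, were left out of this comparison. Ambp was at 762 normalized counts in STING agonist tumor 4, far above the other 3 treated tumors, and so was the sum of the hepatocyte markers at 1526. Without this tumor the folds of the 10 genes ran from 1.18 (Ifi35) to 2.71 (Gbp2b), against 1.17 to 3.79 with it. Nod1 was at 76.6 in STING agonist tumor 3, below the others, which lay between 100.2 and 104. The summed B cell markers were at 24.4 in STING agonist tumor 2, and 3 of these 4 genes had a mean under 20 counts. None of the 10 genes was past this limit.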

How the results depend on the processing

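Under all 18 alternatives the median log2 fold change of the 10 genes was above 0, from 0.51 to 0.91, and 10 of 10 single values were above 0 except with the TMM scale and the size factors of DESeq2, where Ifi35 was below. These 2 scales moved the median of the 10 genes to 0.52 and 0.51 and those without overlap from 6 to 2 and 2. Panel genes with every treated tumor above every control went from 126 to 70 and 67. Genes in the 6 lists higher at an unadjusted p under 0.05 went from 26 to 15 and 15. Panel genes at this threshold went from 132 to 84 and 78 higher and from 10 to 40 and 44 lower. The share of higher genes among these went from 93.0% to 67.7% and 63.9%. With the TMM scale, treated tumor 1 was the highest for 3 genes in place of 7. The Wald test of DESeq2 gave 44 adjusted calls in place of 0. With PBS 2 and 4 left out, chosen after seeing the data, 17 genes were lower. Leaving out 1 tumor gave 0 to 7 adjusted calls, 79 to 154 genes higher, 6 to 18 lower and 16 to 31 higher in the lists. Of the 10 genes, 6 to 7 were without overlap, with a median of 0.65 to 0.91. Panel genes with every treated tumor above every control were 122 (without PBS 2) to 239 (without PBS 3). All 8 tumors separate gave 186 panel genes higher and 38 in the lists, and for single lists 7 antiviral effectors in place of 4, 3 sensors in place of 1, 6 cell death genes in place of 3 and 2 interferons and receptors in place of 0. This setting counts PBS 2 and 4 as independent samples, although they differed by less than sampling noise over genes of moderate count. The cause of these moves was not tested.

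With the replicate number as a block and all 8 tumors separate, there were 0 adjusted calls, 159 genes higher and 13 lower, and the median of the 10 genes was 0.81. This fit again counted PBS 2 and 4 as independent samples. Same-numbered tumors did not deviate together (correlations of -0.28 to -0.09 over 513 genes), and no PBS tumor correlated best with its own number. Gbp2b had the lowest counts of the 10 genes, and its log2 fold change was 1.40 without treated tumor 4 to 2.39 with negative controls subtracted.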

Other observations

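Of the other marker lists, 1 of 4 dendritic cell markers (Itgax, with controls below background) and 1 of 5 endothelial markers (Kdr, 2.10-fold) were higher at an unadjusted p under 0.05, as 17.6% of all genes were, both with every treated tumor above every control and both named after their values were seen. At this threshold 1 of 11 hepatocyte markers was also higher (Ambp, whose log2 fold change of 4.88 was 0.18 without treated tumor 4), and of 5 fibroblast or pericyte markers 1 was higher and 1 lower, as 1.33% of all genes were lower. Summed normalized counts, as group means over 3 control and 4 treated samples, were 321 and 454 for 5 endothelial markers (Pecam1 the most abundant), 9506 and 8019 for 5 fibroblast or pericyte markers, 417 and 465 for 3 neutrophil markers (S100a8), 64.2 and 61.6 for 3 NK cell markers (Eomes), 45.9 and 64.1 for 4 dendritic cell markers (Ccr7), 34.1 and 42.8 for 4 B cell markers (Cd79b), 51.9 and 44.8 for 3 epithelial markers (Cdh1) and 19.9 and 19.3 for 2 mast cell markers (Kit). Col3a1, the most abundant fibroblast marker, was lower in treated tumors with no overlap (log2 fold change -0.42 ± 0.16, SE, adjusted p = 0.22, edgeR), while Col1a1, of the same list and named after its values were seen, was 1.66-fold higher and overlapped. With the TMM scale, the log2 fold changes of Pecam1, S100a8 and Kit turned to -0.01, -0.17 and -0.11.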
